A study of Mus musculus with 4 samples.

Results

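Sites of the glucocorticoid receptor (GR) were described around 10 genes of the Krüppel-like factor (KLF) family, namely Klf2, Klf3, Klf4, Klf5, Klf6, Klf9, Klf10, Klf12, Klf13 and Klf15. A peak was counted for a gene when its centre lay in the gene's RefSeq span (GRCm38) or within 100 kb of it. By this rule the 10 genes, of 21887 protein-coding genes in the table, held 10 of the 2883 peaks listed after 12 h of corticosterone and 19 of the 5638 listed after 1 h. The untreated list held 1 peak, which lay near none of them. Peaks of the lists overlapping by 1 bp or more were taken as 1 site, which gave 20 sites in all.

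The receptor had been immunoprecipitated with its DNA and the DNA sequenced (ChIP-seq) from 33AP1C9 cells, a mouse mammary epithelial line derived from C127 cells. In every group the cells carried a stably integrated MMTV-pp7 reporter and a PP7 coat protein tagged with GFP. The cells had been moved to medium with 10% charcoal-dextran serum 48 h earlier and were left untreated or given 600 nM corticosterone, the natural GR hormone of the mouse, for 1 h or 12 h. Each condition had 1 library, with 79203826 tags in the untreated, 90556119 in the 1 h and 97749688 in the 12 h library. The catalogue number that the labels give for 1 of the antibodies goes up in equal steps from sample to sample, and whether the antibody itself differed between libraries is not known here. RNA was not analysed here, and a binding site near a gene does not show that the gene responds. With 1 library per condition no test between conditions was possible, and the intervals of the tag ratios below cover counting error and compare libraries.

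KLF proteins are transcription factors that share a run of zinc fingers at their carboxyl end and bind GC-rich DNA and CACCC boxes. By their other parts they fall into activators such as KLF2, KLF4, KLF5 and KLF6, repressors that recruit CtBP such as KLF3 and KLF12, and repressors that recruit SIN3A such as KLF9, KLF10 and KLF13. KLF15 stands apart from these groups. Klf9 and Klf15 are well known target genes of GR in several tissues, and their products in turn act on metabolic, circadian and growth genes.

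The stretches before the annotated starts of 4 members are shown. Klf2, Klf9 and Klf15 held the 4 member peaks of the 1 h list within 10 kb of a start, and Klf13 held the strongest site, which lay 41.8 kb from its start. They are RefSeq sequences (GRCm38.p6) of the 250 bases before the start, given 5′ to 3′ in the direction of transcription. Klf2 is at chr8:72318812-72319061 on the plus strand, Klf9 at chr19:23140976-23141225 on the plus strand, Klf13 at chr7:63938916-63939165 on the minus strand and Klf15 at chr6:90462326-90462575 on the plus strand. Capitals mark CCACCC on either strand, the core of a KLF box.
Klf2: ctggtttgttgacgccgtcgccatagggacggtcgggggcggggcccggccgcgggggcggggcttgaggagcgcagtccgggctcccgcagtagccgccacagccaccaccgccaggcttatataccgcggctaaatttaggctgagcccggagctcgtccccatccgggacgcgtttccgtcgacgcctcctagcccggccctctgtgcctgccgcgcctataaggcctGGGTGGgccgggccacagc
Klf9: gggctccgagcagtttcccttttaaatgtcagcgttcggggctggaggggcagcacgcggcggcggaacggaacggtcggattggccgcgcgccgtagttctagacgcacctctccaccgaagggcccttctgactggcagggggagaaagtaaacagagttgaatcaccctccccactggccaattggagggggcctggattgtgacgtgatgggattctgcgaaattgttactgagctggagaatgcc
Klf13: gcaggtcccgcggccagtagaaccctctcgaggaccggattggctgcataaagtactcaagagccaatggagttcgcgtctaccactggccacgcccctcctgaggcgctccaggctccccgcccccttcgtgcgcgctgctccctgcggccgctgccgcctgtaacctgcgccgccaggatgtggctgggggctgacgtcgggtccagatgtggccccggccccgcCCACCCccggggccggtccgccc
Klf15: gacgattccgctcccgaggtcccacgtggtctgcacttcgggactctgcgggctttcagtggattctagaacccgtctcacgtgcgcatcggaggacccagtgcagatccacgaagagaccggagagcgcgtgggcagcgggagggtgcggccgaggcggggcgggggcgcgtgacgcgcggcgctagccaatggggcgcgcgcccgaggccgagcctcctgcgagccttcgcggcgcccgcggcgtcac
The 300 bases from 250 before to 50 after the start were given for 8 of the 10 members, Klf5 and Klf10 being the other two. In these windows 0 GR peaks were listed at 12 h and 0 at 1 h. The same count over all promoters was not made, so whether this absence is unusual is not known. The consensus GR palindrome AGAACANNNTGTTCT was found in 0 of the 8, and in 0 with up to 2 mismatches, against 0.00913% and 1.84% of the 32851 promoters in the table. Its arms, AGAACA and TGTTCT, each the other's reverse complement and part of the palindrome, were also in 0 of 8, against 19.0% of all promoters. The box CCACCC or GGGTGG was in 3 of 8 (Klf2, Klf3 and Klf13), against 31.5%. In Klf2 it began at position -19 and in Klf13 at position -23, counted from the start. The GC content of the windows had a median of 70.7% (45.7 to 76.7%), against 52.7% over all promoters. The lowest value was that of Klf12, whose annotated start (100149796) lies inside its span. The DNA under the peaks themselves was not searched.

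After 12 h, 7 members had a peak, and after 1 h 8 did. Klf2, Klf3, Klf6, Klf9, Klf12, Klf13 and Klf15 had one at both times, Klf4 had one at 1 h alone, and Klf5 and Klf10 had none. By the same rule 22.3% of all protein-coding genes held a 12 h peak, 37.4% a 1 h peak, 21.1% a peak at both times and 16.3% a peak at 1 h alone. Klf9, Klf12, Klf13 and Klf15 had 3 or more peaks at 1 h, 4 of 10 members against 6.86% of all genes, although the span of Klf12 (420 kb) widens its window. A 1 h peak inside the span was listed for Klf12, Klf13 and Klf15, 3 of 10 against 7.54%. These are the members with the longest spans (420, 52.6 and 30.8 kb), and the share over all genes was not matched for span length. The members had been chosen with earlier results of these data known, so these counts describe them and are not independent evidence.

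**Figure D1:**
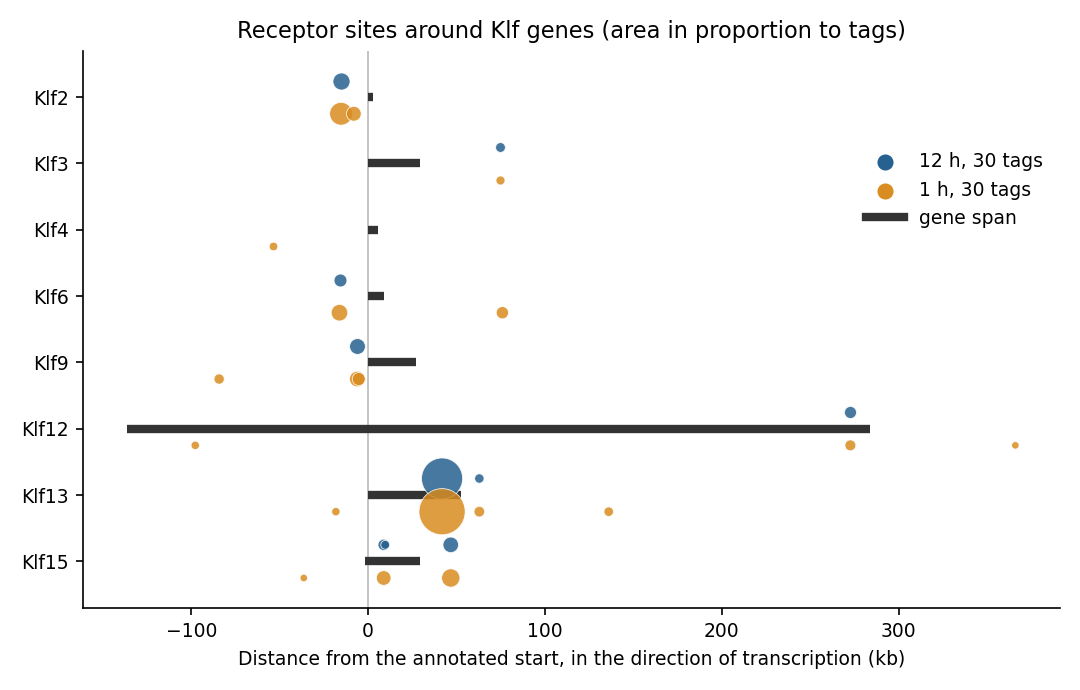
Positions of GR sites around the 8 members with a peak, as distance in kb from the annotated start along the direction of transcription (x axis), with 12 h sites above and 1 h sites below each gene span (black bar). Circle area is in proportion to normalised tags. The largest circles are those inside Klf13, at 41.8 kb after its start.

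Signal is given as tags in the peak window normalised to a library of 10000000 tags, called tags below. The strongest site by far lay inside Klf13, which encodes a factor first known for driving the chemokine gene Ccl5 in T cells. It stood on chromosome 7 (63896937 to 63897219), 41.8 kb after the start. It held 259.5 tags at 12 h, against 327 tags at 1 h, rank 8 of the 2883 and rank 6 of the 5638 peaks. The untreated library held 13 and 12 raw tags in the 12 h and the 1 h window, or 1.64 and 1.52 tags after normalisation. This site alone held 53.3% of the tags summed over member peaks at 12 h and 41.9% at 1 h. Those sums were 487 tags over 10 peaks at 12 h and 782 tags over 19 peaks at 1 h.

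The next site in strength, before Klf2, held 44.8 tags at 12 h, against 79.6 tags at 1 h. Over all member peaks the median was 23.95 tags at 12 h and 18.3 at 1 h, against 18.0 and 18.3 over the whole lists, and the ranges were 12.0 to 259.5 and 8.50 to 327 tags. The family thus had 1 site among the strongest of either list, and its other sites were spread over the ranks below. In the untreated library the member windows held 5 to 24 raw tags (12 h windows) and 5 to 20 (1 h windows), a median of 10.5 and 10, against 12 and 11 over all listed windows. A listed site had to stand at least 6-fold above that library, since it served as the control for both treated lists. The deposited fold over it ran from 7.29 to 158 at 12 h and from 6.73 to 216 at 1 h at member peaks.

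**Figure D2:**
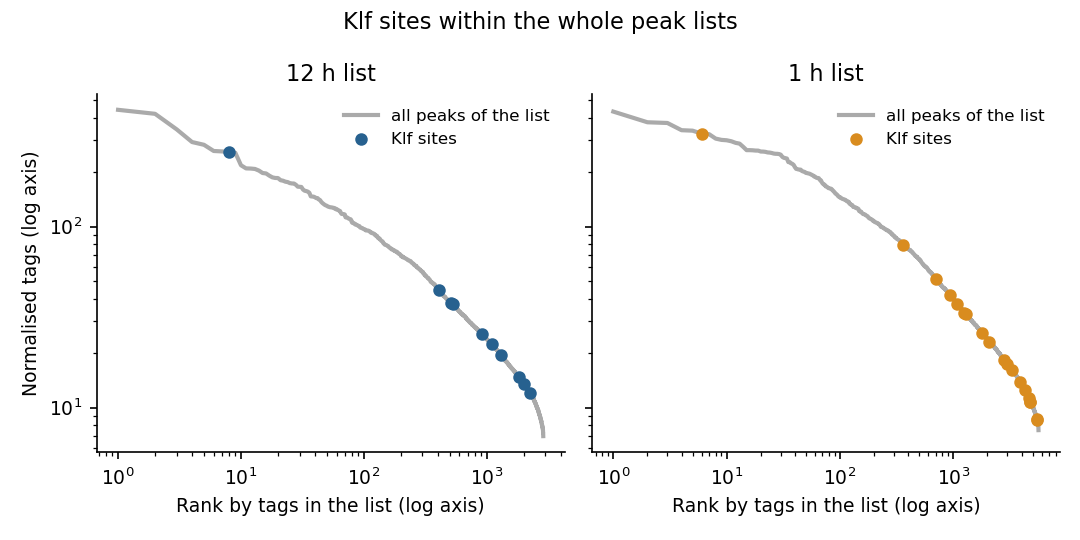
Normalised tags of every peak (grey line, log axis) by its rank in the 12 h list (left) and the 1 h list (right), with member peaks as points. 1 member peak, inside Klf13, is among the leading ranks (8 at 12 h and 6 at 1 h), and the other member peaks start at rank 408 and rank 363.

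Among the activator genes, Klf2, whose product keeps endothelial and T cells quiescent, had a pair of sites before its start, 7216 bp apart. The outer one, on chromosome 8 (72303632 to 72303914) and 15.3 kb before the start, held 44.8 tags at 12 h, against 79.6 tags at 1 h, with 1.52 untreated tags in either window. The log2 ratio of 12 h over 1 h was -0.83 (95% counting interval -1.004 to -0.66), the lowest of the member sites. The inner one (72310848 to 72311130), 8.07 kb before the start, held 33.5 tags at 1 h and was not listed at 12 h. The caller's tag threshold amounts to 7.67 tags at 12 h, more than the 6.06 tags needed for the fold over the untreated library. The 1 h tags of the inner site were 4.37 times these 7.67 tags. The threshold was not a strict floor, since the 12 h list held peaks down to 6.96 tags. Of the 564 peaks in the same decile of the 1 h list by tags, 61.9% had a partner at 12 h. The tags at 12 h in an unlisted window are not given, and such a window can also miss the minimum fold over the surrounding 10 kb. The inner site had a local fold of 24.2 at 1 h, against a minimum of 6.

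Klf6, a gene induced by injury and serum whose product restrains growth, had a site 16.2 kb before its start on chromosome 13 (5845162 to 5845444). It held 25.5 tags at 12 h, against 42.1 tags at 1 h, a log2 ratio of -0.72 (-0.96 to -0.49). Its untreated windows held the most tags of the member sites, 3.03 in the 12 h and 2.53 in the 1 h window, and its fold over the untreated library was 8.41 at 12 h and 16.7 at 1 h. A second Klf6 site 75.9 kb after the start (5937294 to 5937576) held 23.2 tags and was listed at 1 h alone. Klf4, which encodes a pluripotency and epithelial barrier factor, had 1 weak site at 53.9 kb before its start on chromosome 4 (55586205 to 55586487), with 11.3 tags at 1 h and no listing at 12 h. This site stood at 1.47 times the 7.67 tags that the caller's tag threshold amounts to at 12 h. Klf5, whose product drives proliferation of epithelial progenitors, had no site, and the nearest peak to it lay 164 kb away at 12 h (10.6 tags) and 144 kb away at 1 h (8.28 tags).

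Of the CtBP-recruiting repressors, Klf3 and Klf12 had sites of low to middle strength that held slightly more tags at 12 h than at 1 h, within counting error. The Klf12 site inside the gene on chromosome 14 (99876934 to 99877216) held 22.4 tags at 12 h, against 18.3 tags at 1 h, a log2 ratio of 0.29 (-0.01 to 0.59). The Klf3 site on chromosome 5, 45.3 kb beyond the end of the span and 74.7 kb after the start, held 14.7 tags at 12 h (64877950 to 64878252), against 12.5 tags at 1 h (64878089 to 64878371). Its log2 ratio was 0.24 (-0.13 to 0.61). The centres of the Klf3 peaks were 129 bp apart, whereas those of the other shared sites were 1 to 28 bp apart, and its fold over the untreated library was 7.29 at 12 h and 7.60 at 1 h, close to the minimum of 6. Klf12 had 2 further sites at 1 h alone, 1 inside its span with 10.8 tags (100247391 to 100247673) and 1 beyond it with 8.50 tags (99783655 to 99783937). The annotated start used for Klf12 lies inside its span, so the site of 10.8 tags lies 97.7 kb before that start.

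Of the SIN3A-recruiting repressors, Klf9, which is induced by glucocorticoid and thyroid hormone, had the sites nearest to an annotated start. A pair stood 6.10 and 5.27 kb before it on chromosome 19, 832 bp apart. The outer of the pair (23134983 to 23135265) held 38.1 tags at 12 h, against 37.5 tags at 1 h, a log2 ratio of 0.02 (-0.20 to 0.24), and the untreated library held 0.884 tags in the 12 h and 0.631 in the 1 h window. The inner one (23135815 to 23136097) held 26.0 tags at 1 h and was not listed at 12 h. It stood at 2.86 times the 9.09 tags needed for the fold over the untreated library. Its local fold of 8.34 at 1 h was nearer to its minimum, which is 6. Of the peaks in its decile, 49.0% had a partner at 12 h. A site 84.2 kb before the start held 16.2 tags at 1 h alone and lay nearer to Trpm3.

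Klf13 had 3 weaker sites besides the one inside it. The one 10.3 kb beyond the end of the span (63875868 to 63876150) held 13.5 tags at 12 h, against 17.4 tags at 1 h, a log2 ratio of -0.37 (-0.71 to -0.03). The other two, with 13.9 and 10.8 tags, were listed at 1 h alone. At the strong site the log2 ratio was -0.33 (-0.41 to -0.26), so that the 12 h library held 0.793 times as many tags (0.752 to 0.837). Klf10, a gene induced by TGF-beta, had no site. The nearest peak was 620 kb away at both times, with 38.0 tags at 12 h and 91.3 tags at 1 h, and lay next to Baalc.

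Klf15, which encodes a regulator of amino acid and glucose metabolism in muscle, heart and liver, had the most peaks at 12 h (3). The site 17.5 kb beyond the end of its span on chromosome 6 (90509175 to 90509457) held 37.2 tags at 12 h, against 51.5 tags at 1 h, a log2 ratio of -0.47 (-0.67 to -0.27). The site inside the span, 8.81 kb after the start (90471250 to 90471532), held 19.6 tags at 12 h, against 32.9 tags at 1 h, a log2 ratio of -0.74 (-1.01 to -0.48). Both windows held 5 raw tags in the untreated library at either time. A further site inside the span (90472118 to 90472420), 896 bp from that one at 12 h, was the single member site listed at 12 h alone, with 12.0 tags. The caller's tag threshold at 1 h amounts to 8.28 tags, although the 1 h list held peaks down to 7.51 tags. The local fold of the site at 12 h was 7.27, against a minimum of 6. The site stood at 1.45 times the 8.28 tags, and 77.1% of the 288 peaks in its decile of the 12 h list had a partner at 1 h. Whether the listing at 12 h alone is a gain of binding was not tested. A site of 8.61 tags at 1 h alone lay inside the neighbouring gene Cfap100.

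**Figure D3:**
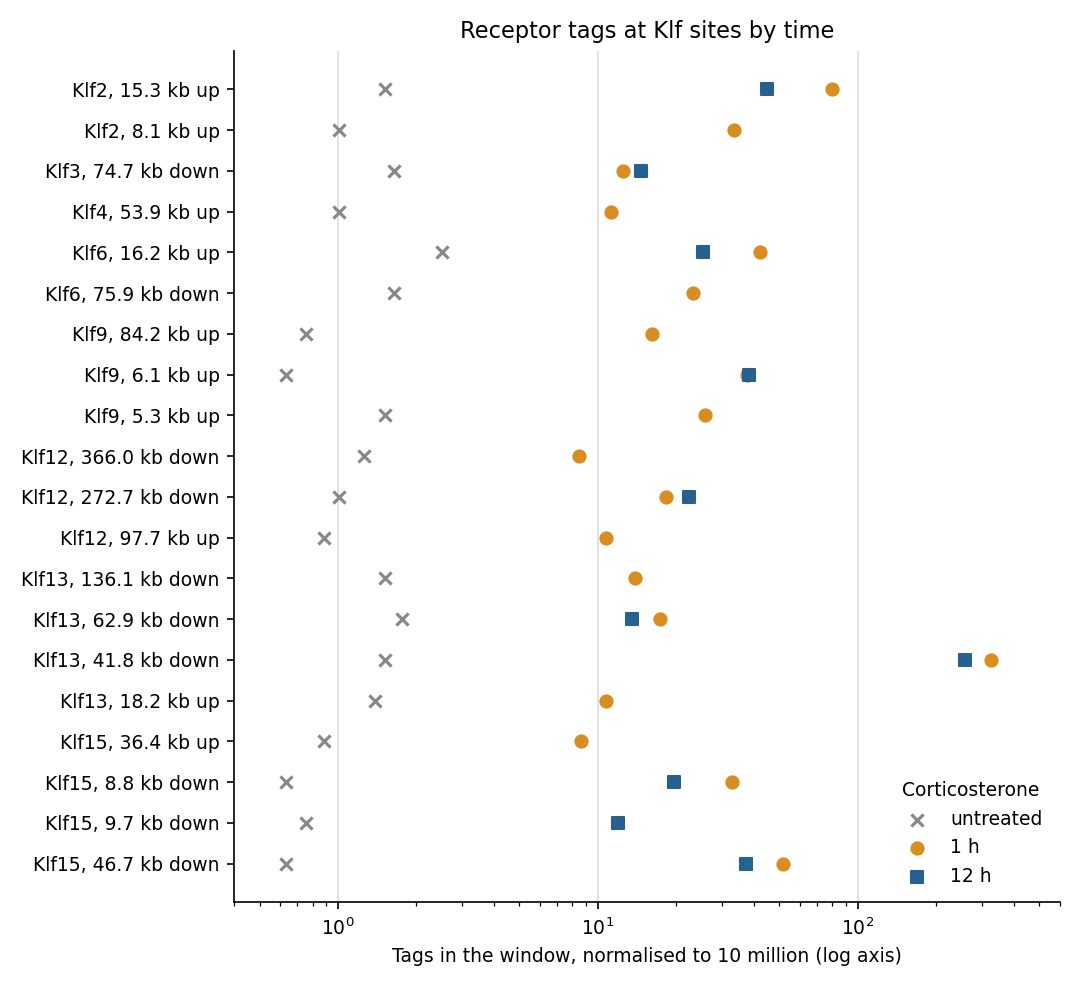
Normalised tags (x axis, log scale) at each of the 20 member sites, named by their distance from the annotated start, in untreated cells (crosses), after 1 h (circles) and after 12 h (squares). A missing symbol means that the site was not listed at that time, and untreated values are those of the 1 h window where listed. Untreated values lie between 0.631 and 2.53 tags, and for the Klf9 site 6.1 kb before the start the 12 h square covers the 1 h circle.

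Of the member peaks 9 of 10 at 12 h (90.0%) overlapped a 1 h peak, and these were 9 of 19 at 1 h (47.4%). The same shares over the whole lists were 84.5% and 43.2%. Both lists had the untreated library as control. The 9 shared sites had a median of 37.5 tags at 1 h, and the 10 sites listed at 1 h alone a median of 12.6. The whole 1 h list showed the same trend. There, 94.5% of the peaks in the highest decile by tags had a partner at 12 h, against 14.4% in the lowest. Of the 10 member sites listed at 1 h alone, the Klf2 site of 33.5 tags and the Klf9 site of 26.0 tags were the strongest. The 3 member peaks with another protein-coding gene nearer than the member (Trpm3 for Klf9, Otud7a for Klf13 and Cfap100 for Klf15) were all in the 1 h list alone.

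Of the 9 shared sites 6 had a lower count of tags at 12 h than at 1 h and 3 a higher one, beside 77.2% with a lower one among all 2436 shared sites. The 6 were lower beyond counting error, against 61.8% of all shared sites, and 0 were higher beyond it, against 11.5%. For Klf9, Klf3 and Klf12 the interval included 0, as it did at 26.8% of all shared sites. These counts use tags per window, and the windows were 302 bp wide at 12 h and 282 bp at 1 h. With tags per base the log2 ratio was -0.08 for Klf9, 0.14 for Klf3 and 0.19 for Klf12. At least 2-fold lower sites numbered 0 of 9, against 24.5%. The median log2 ratio was -0.37 over the 9 sites, against -0.49 over all shared sites. With 9 sites, the share that was lower beyond counting error was close to that of all sites.

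Tags normalised to library size place the median of all shared sites at -0.49, and setting that median to 0 raises every ratio by 0.49. Relative to it, Klf12 (0.78), Klf3 (0.73), Klf9 (0.51) and the strong Klf13 site (0.16) were higher beyond counting error, 4 of 9 against 33.6% of all sites. The outer Klf2 site (-0.33) was lower beyond it, 1 of 9 against 36.0%. The sites of Klf6 (-0.23), Klf15 (-0.25 and 0.03) and the weaker Klf13 site (0.13) had intervals that included the median. The direction at both Klf13 sites and at the Klf15 site beyond the span therefore differs between these scalings, while at Klf2, Klf6 and the Klf15 site inside the span the 12 h library was lower under both. In order of their ratios, the 3 highest (Klf12, Klf3 and Klf9) had overlapping intervals, as had the 3 lowest (Klf6, Klf15 inside the span and Klf2). No interval of the first 3 overlapped one of the last 3. Both sets were taken from the ends of the same ordering, so this separation is a description.

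**Figure D4:**
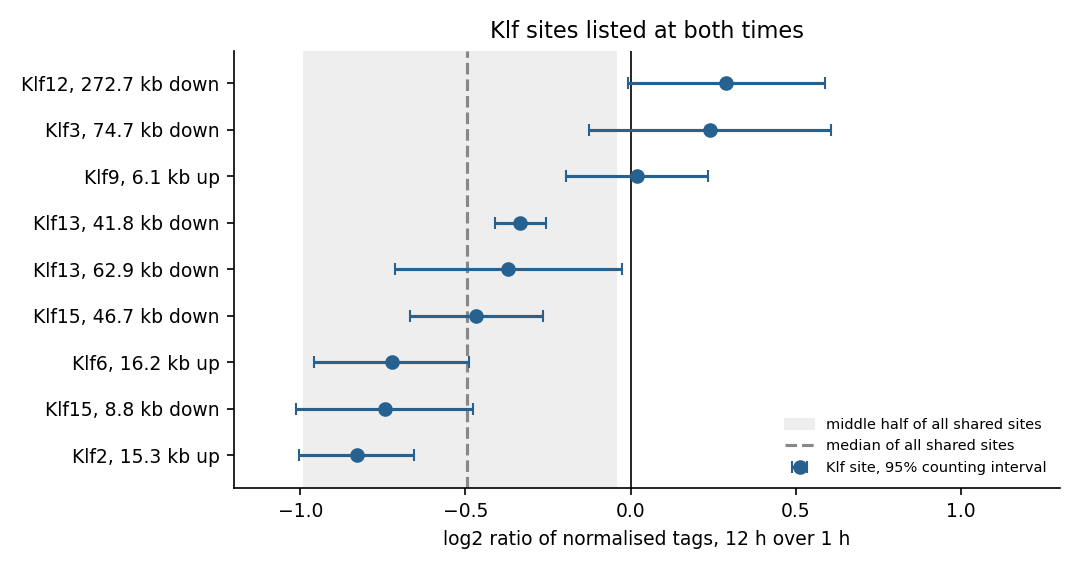
Log2 ratio of normalised tags at 12 h over 1 h (x axis) at the 9 member sites listed at both times, with 95% exact binomial counting intervals. The dashed line is the median of all 2436 shared sites (-0.49) and the grey band spans their lower to upper quartile (-0.99 to -0.04). Klf12, Klf3 and Klf9 lie to the right of the band with intervals across 0, and Klf2, Klf15 inside the span and Klf6 are the lowest.

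The count of member peaks depends on the reach of 100 kb. The farthest peaks counted lay 84.2 kb (Klf9, 16.2 tags), 83.5 kb (Klf13, 13.9 tags) and 82.4 kb (Klf12, 8.50 tags) from the span, all at 1 h. The nearest beyond the limit at 1 h lay 127.1 kb from Klf13 (43.4 tags), 137 kb from Klf6 (14.4 tags) and 144 kb from Klf5 (8.28 tags).

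Of the 7 other KLF genes examined, a 12 h peak was found for 2 and a 1 h peak for 5, with Klf1, Klf7, Klf11, Klf14 and Klf16 holding one at 1 h and Klf1 and Klf16 at both times. The strongest of these sites, 87.5 kb from Klf16 on chromosome 10 (80664609 to 80664891) and nearer to Mknk2, held 123.5 tags at 12 h, against 163 tags at 1 h. The strongest near Klf1, which encodes the erythroid member, held 7.98 tags at 12 h, against 32.5 tags at 1 h, and lay nearer to Rnaseh2a. Among 9 genes of the related Sp factors, which bind similar GC-rich boxes, a 12 h peak was found for 2 (Sp2 and Sp6) and a 1 h peak for 4 (Sp2, Sp3, Sp6 and Sp8), and Sp2 and Sp6 counted the same strongest site of 17.0 tags at 12 h, against 25.6 tags at 1 h. Of 12 genes of cofactors that KLF proteins bind, or that modify them, a 12 h peak was found for 2 (Ep300 and Hdac3) and a 1 h peak for 5 (those and Ctbp1, Crebbp and Hdac1). At the strongest, 62.7 kb from Ep300, 28.1 tags at 12 h compared with 49.8 tags at 1 h. Of 7 genes of the MEK5, ERK5 and MEF2 route that induces Klf2 and Klf4, 3 had a peak at each of the times (Mapk7, Map2k5 and Mef2d). At the strongest, 54.4 kb from Map2k5 and nearer to Skor1, 22.9 tags at 12 h compared with 83.4 tags at 1 h. These shares stand beside 22.3% at 12 h and 37.4% at 1 h of all genes. The established targets Per1, Fkbp5, Tsc22d3, Sgk1, Dusp1 and Zbtb16 had a peak in 6 of 6 at both times, 30 peaks at 12 h and 37 at 1 h.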

How the data were processed

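GR ChIP-seq peak lists of 33AP1C9 cells (untreated, and 1 h and 12 h of corticosterone, 1 library each) were analysed, and an input sample was not used here. The submitters' processing notes name bcl2fastq 2.17, Bowtie2 2.2.6, HOMER (no version) and the build mm10. Per the file headers, the authors called peaks per library with HOMER findPeaks (factor style, false discovery rate 0.001, tag threshold 75, minimum fold 6 against the control library and 6 against the local 10 kb). Both treated lists had the untreated ChIP library as control, and the untreated list an input.

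The signal, normalised tag count per 10000000 tags, was deposited by the authors. The treated tag counts were deposited scaled to the untreated library, and undoing that scale returned integers, to 0.1 of a tag, in 100% of windows. The untreated tag counts per window were deposited as whole counts, with 0 written as a placeholder. The fold ratios over control and local region are the authors' own values. The caller's score was deposited by the authors and used here for stricter thresholds. The p-value and a fraction describing peak shape, also deposited, were not used.

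Peaks were assigned to RefSeq spans (GRCm38.p6, the assembly of mm10). Exons and the genome sequence were not used here. Exact binomial (Clopper-Pearson) 95% intervals of the tag ratios were computed with SciPy 1.17.1 in Python 3.11.15, and they hold for counting error alone, because PCR copies are not told apart without molecular identifiers. The pairing, the assignment, the intervals and the motif search were tested on simulated data. All 10 members are named. Sites described are the strongest per member and time, those in or within 10 kb of a span, those listed at 12 h alone, and others added after their values were seen. The members, the 5 other gene lists and the comparisons were chosen with earlier results of these data known. The search for CCACCC was added later.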

Additional observations from a re-analysis of the deposited data

How the results depend on the processing

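Within 10 kb of the span the members had 5 peaks at 12 h and 7 at 1 h, for 4 and 5 members. Within 25 kb the 1 h peaks numbered 12, and within 250 kb the peaks numbered 17 at 12 h and 34 at 1 h. When each minimum of the caller was doubled, that is 2 times as strict, 6 and 9 peaks were left. The share of all protein-coding genes was not computed at these settings, so these counts have no background beside them. The numbers of members with a peak, 7 at 12 h and 8 at 1 h within 100 kb, fell more than 1.5-fold at 10 kb. They stayed within 1.5 times the values at 100 kb at 25, 50 and 250 kb and under the doubled minimums. The same held when peaks went to the nearest protein-coding gene, and by distance from the annotated start, the last chosen after seeing the data. The number of shared sites was 9 with an overlap of at least 50% of the shorter peak and 8 with centres within 100 bp. Setting the median of all shared sites to 0 turned the median log2 ratio of the members to 0.13, that of the Klf13 sites to 0.13 and 0.16 and that of the Klf15 site beyond the span to 0.028, by the construction of that scaling. The median kept its direction with tags per base, with untreated tags subtracted, at the 4 other distances, and without the strong Klf13 site, the last also chosen after seeing the data. The log2 ratio of the shared Klf9 site went from 0.02 to -0.08 with tags per base. No paired analysis was possible because each condition has 1 library. The effect of depth on the listing of weak sites was not tested, and with 1 library per condition the spread between replicates is unknown.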
